A study of Mus musculus with 8 samples.

Results

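The genes described here are the apolipoproteins of the liver, the protein parts of the particles that carry cholesterol and triglyceride in blood. The 10 genes considered were Apoa1, Apoa2, Apoa4, Apoa5, Apob, Apoc1, Apoc2, Apoc3, Apoe and Apom, and their probes were found through the RefSeq accession that the array files give for each probe. In all, 11 probes named 9 of the 10 genes, among 15857 genes tested, and Apoc2, the activator of lipoprotein lipase, was not analysed here. All 11 probes were well above background on 8 of 8 arrays and none was saturated.

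RNA of whole liver from 8 mice was measured, 1 Agilent one-colour array per mouse. The 4 groups of 2 mice were AKP::Keap1 males, AKP males, AKP::Keap1 females and AKP females. All 4 groups express an activated oncogene and mutant p53 (R172H) specifically in the liver, so no group is a normal liver, and AKP::Keap1 mice in addition lack Keap1, the adaptor through which the transcription factor Nrf2 is degraded. The series asks how this loss acts on bile duct cancer. The driver of the liver-specific alleles, the ages of the mice and whether mice of a group were littermates are not given in the sources used here, so p-values measure only the spread between these mice.

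Apolipoproteins of the liver are secreted on very low density lipoprotein (VLDL), which Apob builds with triglyceride, and on high density lipoprotein (HDL), which Apoa1 forms by taking up cholesterol. Smaller exchangeable members move between these particles and set how fast lipases and receptors clear them. Hepatocytes are the main source of most of them, and their genes are known targets of liver-enriched transcription factors such as Hnf4a. Apoa1, Apoc3, Apoa4 and Apoa5 lie next to each other on chromosome 9, with no protein-coding gene between them in the RefSeq order, and Apoc1 lies next to Apoe on chromosome 7.

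Keap1 itself had -1.35 and -1.40 in AKP::Keap1 males, against 1.83 and 2.14 in AKP males, and -0.52 and -0.72 in AKP::Keap1 females, against 1.68 and 1.77 in AKP females. Here and below a level is the log2 signal minus the array's 75th percentile, a difference is on the same log2 scale, and levels of different probes are not compared. Keap1 was thus lower in every AKP::Keap1 liver than in any AKP liver (-2.85 ± 0.11 SE, limma adjusted p = 0.000177), although the files do not say whether its probe lies in the deleted part. Between 65.7% and 70.7% of spots per array were well above background. Each slide held 1 group, so slide and group cannot be told apart within a sex. Hepatocyte markers were abundant in all 8 livers, with Alb between 8.07 and 9.07.

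The promoters below belong to the 4 genes that were called between genotypes over both sexes. They are shown with the letters searched for in capitals, from 250 bases before to 50 bases after the start site, in the direction of transcription (RefSeq, GRCm38.p6).
Apoa1 (chr9:46228380-46228679, plus strand): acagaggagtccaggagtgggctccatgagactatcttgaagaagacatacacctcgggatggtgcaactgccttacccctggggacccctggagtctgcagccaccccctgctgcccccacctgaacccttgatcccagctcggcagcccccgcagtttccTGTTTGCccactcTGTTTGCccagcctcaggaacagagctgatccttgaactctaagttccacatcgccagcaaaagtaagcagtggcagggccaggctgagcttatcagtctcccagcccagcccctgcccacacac
Apoa4 (chr9:46240594-46240893, plus strand): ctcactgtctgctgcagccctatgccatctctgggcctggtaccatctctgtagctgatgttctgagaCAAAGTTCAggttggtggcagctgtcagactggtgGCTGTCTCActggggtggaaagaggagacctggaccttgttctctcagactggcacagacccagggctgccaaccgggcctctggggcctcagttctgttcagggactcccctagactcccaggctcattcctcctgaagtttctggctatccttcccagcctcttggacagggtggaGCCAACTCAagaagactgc
Apob (chr12:7977427-7977726, plus strand): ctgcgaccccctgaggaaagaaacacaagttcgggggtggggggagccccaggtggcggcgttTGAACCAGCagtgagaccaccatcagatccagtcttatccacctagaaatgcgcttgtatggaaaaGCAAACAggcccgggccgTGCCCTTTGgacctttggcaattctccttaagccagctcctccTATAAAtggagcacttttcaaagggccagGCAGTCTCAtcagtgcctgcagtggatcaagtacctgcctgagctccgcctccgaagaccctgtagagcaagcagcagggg
Apom (chr17:35131752-35132051, minus strand): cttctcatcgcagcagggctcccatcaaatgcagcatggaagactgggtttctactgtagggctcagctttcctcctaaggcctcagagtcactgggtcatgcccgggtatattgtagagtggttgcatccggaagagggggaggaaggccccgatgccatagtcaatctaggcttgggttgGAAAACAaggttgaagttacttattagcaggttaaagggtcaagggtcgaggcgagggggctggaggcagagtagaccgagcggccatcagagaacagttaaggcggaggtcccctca
Searched on both strands were CAAAGNNCA, letters found in elements bound by Hnf4a, TGTTTNC, found in forkhead (Fox) elements, the TATA box TATAAA, and TGANNNNGC, the core of the antioxidant response element that Nrf2 binds. Apoa1 held TGTTTGC at 88 and at 75 bases before its start. Apoa4 held CAAAGTTCA at 182 bases before its start and a TGANNNNGC match on the opposite strand at 147 bases before it, with a second such match after the start. Apob held a TATA box at 60 bases before its start, CAAAGNNCA on the opposite strand, as TGCCCTTTG, at 103, a forkhead match as GCAAACA at 121, and TGANNNNGC matches at 187 and 31. Apom held only a forkhead match, GAAAACA at 68. Of 32851 promoters of this length, 6.36% held CAAAGNNCA, 20.5% TGTTTNC, 13.6% TATAAA and 41.3% TGANNNNGC, so this looser pattern is common. A match describes letters in this window and is not a measured binding site. Promoters were in the table for 8 of the 10 genes.

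Between genotypes, the apolipoproteins that passed the test were lower in AKP::Keap1 livers. Over both sexes, 4 of the 9 measured genes were called lower, 0 higher and 5 not called, and Apoa4, Apob, Apoa1 and Apom fell by 1.19, 0.65, 0.64 and 0.52. Of all genes tested, 17.2% were called lower, 21.8% higher and 39.0% in either direction. The median difference of the 9 genes was -0.34, against -0.00066 over all genes. All 9 differences were negative. As whole livers were measured, fewer hepatocytes and less RNA per hepatocyte cannot be told apart. With slide as a random block in a model of genotype plus sex, 0 of the 9 genes were called, with adjusted p of 0.0583 for Apom, 0.0814 for Apob, 0.101 for Apoa1 and 0.16 for Apoa4.

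**Figure D1:**
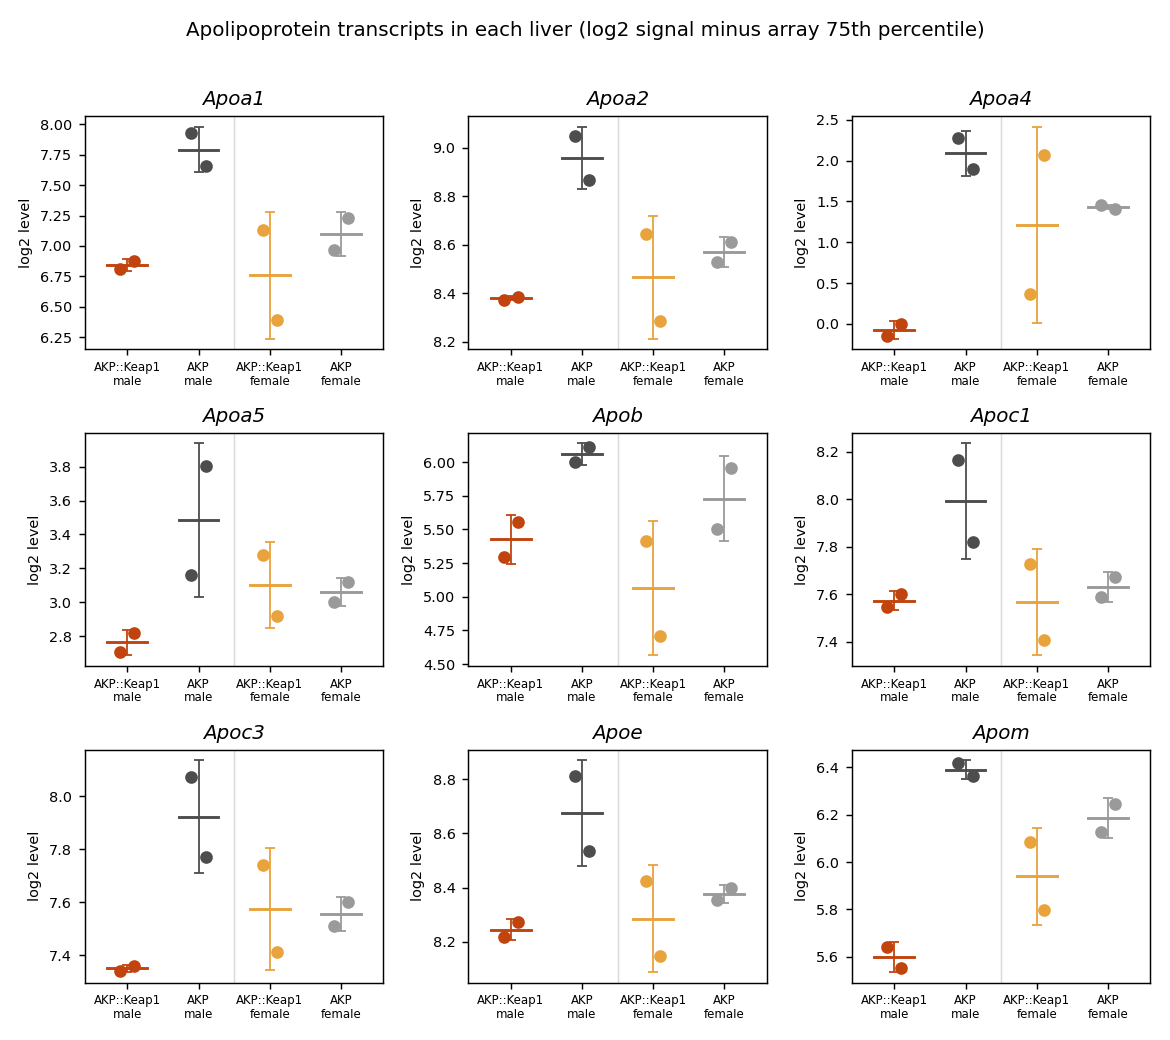
Level of each apolipoprotein in each liver, as log2 signal minus the array's 75th percentile (vertical axis), by group (horizontal axis). Points are mice, horizontal lines are means of 2 mice and bars are SD. AKP males have the highest group mean in all 9 panels, and Apoa4 in AKP::Keap1 females spans 0.37 to 2.06.

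Among the HDL proteins, Apoa1, the main protein of HDL and the activator of the enzyme Lcat, had 6.81 and 6.88 in AKP::Keap1 males, against 7.93 and 7.66 in AKP males. It had 7.13 and 6.39 in AKP::Keap1 females, against 6.97 and 7.23 in AKP females. The male groups did not overlap, whereas 1 AKP::Keap1 female lay between the 2 AKP females and the other below both. The difference was -0.64 ± 0.18 over both sexes (SE, n = 4 mice per genotype, limma adjusted p = 0.0341), a 1.56-fold lower level. It was -0.95 ± 0.26 in males (adjusted p = 0.0397) and -0.34 ± 0.26 in females (adjusted p = 0.378). Leaving out any AKP liver or any AKP::Keap1 male ended the call over both sexes (adjusted p from 0.0549 to 0.0984), and leaving out either AKP::Keap1 female did not.

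Apoa2, the second protein of HDL, had 8.37 and 8.39 in AKP::Keap1 males, against 9.05 and 8.87 in AKP males. It had 8.64 and 8.29 in AKP::Keap1 females, against 8.53 and 8.61 in AKP females. It fell by 0.58 ± 0.16 in males (adjusted p = 0.0392), where the groups did not overlap, but the male difference was -0.02 after quantile normalization (adjusted p = 0.897) and -0.07 without scaling. Apoa2 ranked at the 100th percentile of brightness among the genes tested. Quantile normalization gives the brightest probes nearly equal values on every array, so it cannot show whether such a gene differs. The difference was -0.10 ± 0.16 in females (adjusted p = 0.664) and -0.34 ± 0.11 over both sexes (adjusted p = 0.0509). Its second probe gave -0.43 in males in a fit over single probes, with an adjusted p of 0.0739, so the call in males rests on the brighter probe. That probe also read closest to the scanner's limit, at 68.1% of the saturation value.

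Apom, the HDL protein that carries sphingosine 1-phosphate, had 5.64 and 5.55 in AKP::Keap1 males, against 6.42 and 6.36 in AKP males. It had 6.08 and 5.80 in AKP::Keap1 females, against 6.13 and 6.25 in AKP females. Every AKP::Keap1 liver lay below every AKP liver. By the brightest probe of each gene, this held for no other measured apolipoprotein and for 11.5% of all genes. A second, dimmer probe of Apob was separated as well, with AKP::Keap1 livers at 3.37 to 4.09 and AKP livers at 4.19 to 5.10. The difference was -0.52 ± 0.10 over both sexes (adjusted p = 0.00942), -0.79 ± 0.14 in males (adjusted p = 0.0132) and -0.25 ± 0.14 in females (adjusted p = 0.245). Apom stayed called over both sexes when any 1 of the 8 arrays was left out, with differences from -0.59 to -0.45.

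Apoa4, which travels on HDL and on chylomicrons and in mice is made by liver as well as intestine, had the largest male difference of the 9 genes. It had -0.15 and 0.0043 in AKP::Keap1 males, against 2.28 and 1.90 in AKP males, a 4.48-fold lower level (-2.16 ± 0.51, adjusted p = 0.0273). It had 0.37 and 2.06 in AKP::Keap1 females, against 1.45 and 1.41 in AKP females. The 2 AKP::Keap1 females thus lay on either side of both AKP females, and the difference in females was -0.22 ± 0.51 (95% confidence interval -1.44 to 1.01, adjusted p = 0.79). Without AKP::Keap1 female 2 it was -1.07 and called (adjusted p = 0.0412), and without AKP::Keap1 female 1 it was 0.63 and not called (adjusted p = 0.102). Over both sexes the difference was -1.19 ± 0.36 (adjusted p = 0.0417), and that call was lost without any 1 AKP liver or any 1 AKP::Keap1 male (adjusted p from 0.0747 to 0.11). Leaving out AKP::Keap1 female 1 gave -0.77 and leaving out female 2 of that group gave -1.61, called both times.

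Because Apoa4 is also an intestinal gene, enterocyte markers are given beside it. Of 7, 4 were measured and Lct, Alpi and Cdx2 did not pass the filter on dim probes. Over both sexes Vil1, a brush border protein also made by bile duct cells, was higher (3.05 ± 0.36, adjusted p = 0.00239) and Fabp2, an intestinal fatty acid binding protein, was lower (-0.72 ± 0.17, adjusted p = 0.0211). The summed linear level of the 4 was 12.8 to 16.3 in AKP::Keap1 livers and 16.4 to 30.9 in AKP livers. Fabp2 made up most of this sum on every array, with log2 levels of 3.54 to 4.94. Vil1, Sis and Cdx1 were each at 0.26 or below, so the sum mainly follows Fabp2. The part of the enterocyte markers in the Apoa4 values was not tested.

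Of the genes that act on triglyceride, Apob, the backbone of VLDL, had 5.30 and 5.56 in AKP::Keap1 males, against 6.0 and 6.12 in AKP males. It had 5.41 and 4.71 in AKP::Keap1 females, against 5.51 and 5.95 in AKP females. The groups did not overlap within either sex, and the difference was -0.63 ± 0.27 in males (adjusted p = 0.122) and -0.67 ± 0.27 in females (adjusted p = 0.126). The female difference was -1.02 when AKP::Keap1 female 1 was left out, -0.32 when female 2 of that group was and -0.44 when AKP female 2 was. Over both sexes Apob fell by 0.65 ± 0.19 (adjusted p = 0.0389). A second probe for Apob, fitted with all single probes, gave -0.93 ± 0.19 over both sexes (adjusted p = 0.011), -1.31 ± 0.27 in males (adjusted p = 0.0186) and -0.54 in females (adjusted p = 0.185). The call of the brighter probe was lost without any 1 male, without AKP female 2 and without AKP::Keap1 female 2 (adjusted p from 0.0704 to 0.108).

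Apoc3, an inhibitor of lipoprotein lipase and of particle uptake, had 7.34 and 7.36 in AKP::Keap1 males, against 8.07 and 7.77 in AKP males. It had 7.74 and 7.41 in AKP::Keap1 females, against 7.51 and 7.60 in AKP females. It fell by 0.57 ± 0.17 in males (adjusted p = 0.0464), but the male difference was -0.14 after quantile normalization (adjusted p = 0.359) and -0.07 without scaling. Apoc3 was at the 99.64th percentile of brightness, where quantile normalization leaves little difference between arrays by design. In females the difference was 0.02 ± 0.17 (adjusted p = 0.943). Apoa5, which promotes triglyceride breakdown by the same lipase, had 2.71 and 2.82 in AKP::Keap1 males, against 3.16 and 3.80 in AKP males. In females Apoa5 had 3.28 and 2.92 with AKP::Keap1, against 3.0 and 3.12 with AKP. Its differences were -0.72 ± 0.24 in males (adjusted p = 0.0651) and 0.04 ± 0.24 in females (adjusted p = 0.923), so neither passed. The male difference was -1.04 and called without AKP male 1 (adjusted p = 0.0407), and -0.40 without AKP male 2.

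Apoe, a ligand of the LDL receptor on remnant particles, had 8.22 and 8.27 in AKP::Keap1 males, against 8.81 and 8.54 in AKP males. In females it had 8.42 and 8.15 with AKP::Keap1, against 8.35 and 8.40 with AKP. Apoc1, a small exchangeable protein of VLDL and HDL, had 7.55 and 7.60 in AKP::Keap1 males, against 8.16 and 7.82 in AKP males, and 7.73 and 7.41 in AKP::Keap1 females, against 7.59 and 7.67 in AKP females. Neither neighbour on chromosome 7 was called in either sex. The male differences were -0.43 ± 0.15 for Apoe (adjusted p = 0.0799) and -0.42 ± 0.17 for Apoc1 (adjusted p = 0.109). The female differences were -0.09 ± 0.15 for Apoe and -0.06 ± 0.17 for Apoc1.

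By sex, 5 of the 9 genes were called lower in AKP::Keap1 males and 0 higher (Apoa1, Apoa2, Apoa4, Apoc3 and Apom). Of all genes, 11.4% were called lower in that comparison, 16.7% higher and 28.2% in either direction. In all 9 genes both AKP::Keap1 males lay below both AKP males, as did 38.2% of all genes. Without AKP male 1 the one call was Apoa5, without AKP male 2 or either AKP::Keap1 male 0 genes were called, and without either AKP female the calls were Apoa4 and Apom. The median of the 9 male differences was -0.63, against -0.03 over all genes. In females limma called 0 of 9 genes, with 1 at an unadjusted p below 0.05 (Apob), against 9.07% of all genes called lower, 12.3% higher and 21.4% in either direction. The female median was -0.10, against 0.05 over all genes. It was -0.23 when AKP::Keap1 female 1 was left out and 0.05 when female 2 of that group was. Leaving out the same 2 mice in turn gave female differences of -0.71 and 0.03 for Apoa1 and of -0.39 and -0.10 for Apom. Only Apob and Apom had female groups that did not overlap, both with AKP::Keap1 below, as had 28.5% of all genes.

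**Figure D2:**
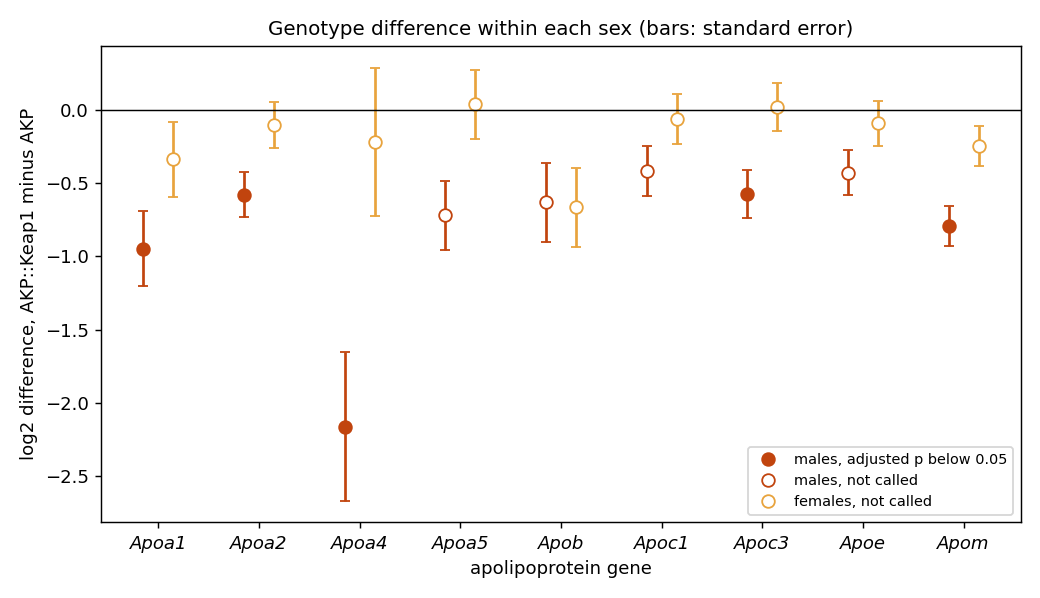
Difference between AKP::Keap1 and AKP livers on the log2 scale (vertical axis) for each apolipoprotein (horizontal axis), in males and in females. Bars are standard errors of the limma fit and filled points have an adjusted p below 0.05. All male points lie below 0, with Apoa4 lowest at -2.16, and no female point is filled.

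The difference between the sexes was tested as an interaction, in which the male genotype difference was subtracted from the female one. None of the 9 genes was called by limma, with 3 at an unadjusted p below 0.05 (Apoa4, Apom and Apoc3). Of all genes, 1.71% were called in either direction, 0.410% with a positive and 1.30% with a negative interaction. The interaction was 1.95 ± 0.72 for Apoa4 (95% confidence interval 0.21 to 3.68, adjusted p = 0.178), 0.55 ± 0.20 for Apom (0.07 to 1.02, adjusted p = 0.172) and 0.59 ± 0.23 for Apoc3 (0.03 to 1.16, adjusted p = 0.199). For Apob it was -0.03 ± 0.38 (-0.96 to 0.89). The calls in males alone are therefore not shown to differ from females. Without AKP::Keap1 female 1 the Apoa4 interaction was 2.79 (adjusted p = 0.0597), and without AKP::Keap1 female 2 it was 1.10 (adjusted p = 0.118).

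AKP males had the highest of the 4 group means in 9 of 9 genes, against 30.8% of all genes. Before scaling this held for 7 of the 9, and AKP::Keap1 males had the highest mean signal for Apoe and Apoc1. After scaling, the lowest mean was in AKP::Keap1 males for 6 genes and in AKP::Keap1 females for Apoa1, Apob and Apoc1. For Apoa1 the order of means was AKP males at 7.79 ± 0.19, AKP females at 7.10 ± 0.18, AKP::Keap1 males at 6.84 ± 0.05 and AKP::Keap1 females at 6.76 ± 0.52 (SD, n = 2 each), and the last pair differed by less than its spread. Females and males, averaged over genotypes, were compared in the same fit. All males were scanned on one day and all females on another, so sex and scan day cannot be told apart. None of the 9 genes was called by sex and none had an unadjusted p below 0.05, while 10.2% of all genes were called lower in females, 10.9% higher and 21.1% in either direction. The sex differences, female minus male, ran from -0.39 for Apoa1 (adjusted p = 0.167) to 0.32 for Apoa4 (adjusted p = 0.552). Without AKP::Keap1 female 1, Apoa4 was called higher in females (0.74) and Apoa1 lower (-0.57).

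Mice of a group also differed from each other. AKP::Keap1 female 2 lay below female 1 in 8 of 9 genes, by 0.28 for Apoe to 0.74 for Apoa1, and above it by 1.70 for Apoa4. The 75th percentile was 0.29 higher in female 2 on the log2 scale, and the unscaled signals of Apom, at 70182 in female 1 and 70180 in female 2, and of Apoe, at 355406 and 358008, were nearly equal. In AKP males, replicate 2 lay below replicate 1 in 7 of 9 genes, by 0.34 for Apoc1 and 0.28 for Apoe, with a 75th percentile 0.22 higher in replicate 2, and Apoa5 lay above by 0.64. The summed linear level of 10 bile duct markers was 39.2 in AKP::Keap1 female 1 and 86.2 in female 2 (9.33 and 19.2 without Spp1, the most abundant of them), and that of 14 hepatocyte markers was 2610 in female 1 and 2020 in female 2. The part of liver composition in these values was not tested.

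The genotype differences moved with the quantity that each array was scaled to. The 75th percentile was itself higher in AKP::Keap1 livers, by 0.31 over both sexes, 0.51 in males and 0.11 in females on the log2 scale. Before any scaling the signals of Apoe, Apoc3, Apoa2, Apom and Apoc1 varied 1.31-fold to 1.37-fold between the lowest and highest of 8 arrays, while Apoa4 varied 3.96-fold, Apob 2.38-fold and Apoa1 2.23-fold. Apoa2, for example, had unscaled signals of 507692 and 488162 in AKP::Keap1 males, against 516082 and 530562 in AKP males. Apoe had 455770 and 451482 in AKP::Keap1 males, against 438027 and 422056 in AKP males, which is higher with AKP::Keap1 before scaling and lower after it.

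**Figure D3:**
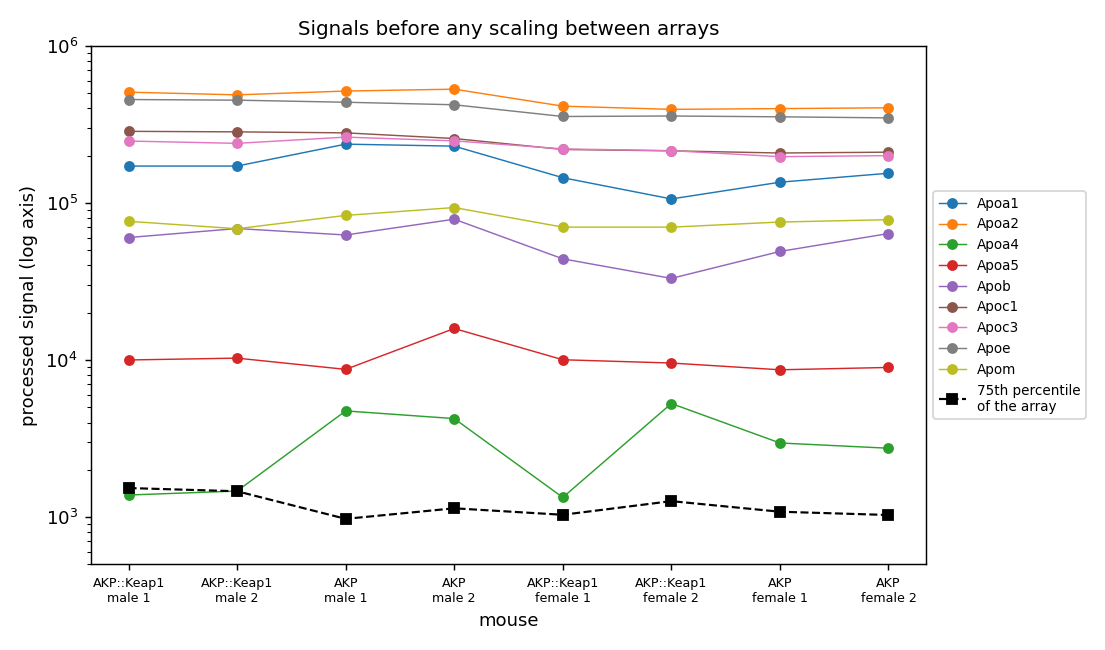
Processed signal of each apolipoprotein probe (vertical axis, log scale) on each of the 8 arrays (horizontal axis), before scaling, with the array's 75th percentile as black squares. Heights of different probes are not comparable. Most lines are near flat within a sex, Apoa4 is lowest in both AKP::Keap1 males and in AKP::Keap1 female 1, and the black line is highest in AKP::Keap1 males.

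Without scaling 0 of the 9 genes were called over both sexes or in males, scaled to the array median 9 of 9 were called lower in each, and after quantile normalization 2 were called in each. Those 2 were Apob and Apom over both sexes and Apoa4 and Apom in males. Scaled to the median of the 1586 brightest genes, a setting chosen after seeing the data, 2 were called over both sexes (Apoa1 and Apom) and 2 in males (Apoa4 and Apom). Of all 15857 genes, those called lower over both sexes numbered 644 without scaling, 6372 with the array median, 2841 after quantile normalization and 1547 with the brightest genes. In males these numbers were 170, 6522, 1450 and 391. The all-gene median moved by -0.25 with the array median and by 0.31 without scaling. Relative to that median, the 9 genes' median was -0.34 over both sexes under each of these constant shifts, which cannot alter it, and -0.23 after quantile normalization. In males it was -0.60 relative to all genes under the constant shifts and -0.29 after quantile normalization. With normexp background correction on median signals it was -0.18 over both sexes and -0.38 in males. Of the 9 genes, 5 were above the 99th percentile of brightness, where quantile normalization leaves little difference between arrays by design.

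**Figure D4:**
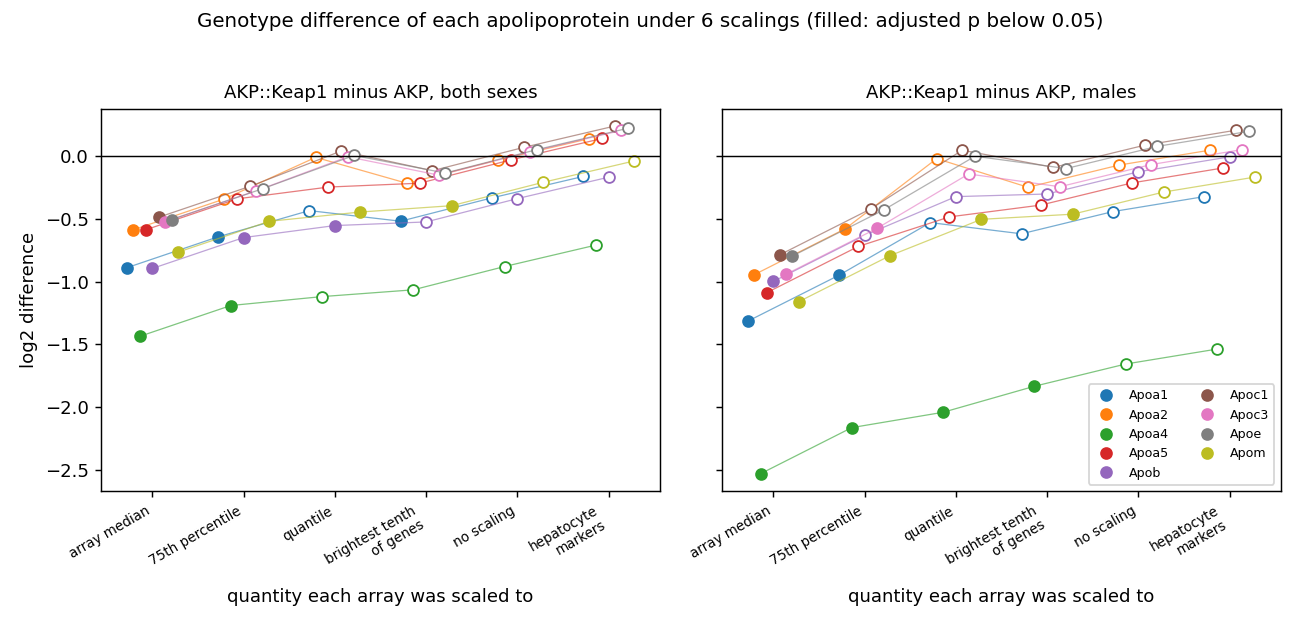
Difference between AKP::Keap1 and AKP livers on the log2 scale (vertical axis) for each apolipoprotein when arrays were scaled to 6 different quantities (horizontal axis), over both sexes and in males. Filled points have an adjusted p below 0.05. All points are filled with the array median and none without scaling or with hepatocyte markers, while Apoa4 stays lowest throughout.

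Hepatocyte markers moved with the apolipoproteins. Of 14 measured of 15 listed, 4 were called lower over both sexes and 0 higher, with a median of -0.36, where 17.2% of all genes were called lower. In males 7 were called lower, with a median of -0.58, where 11.4% of all genes were. The 4 called over both sexes were the enzymes Hpd, Cps1, Pck1 and Tat. Over both sexes the secreted Alb and Ttr were not called, with -0.31 ± 0.13 for Alb (adjusted p = 0.102) and -0.31 ± 0.12 for Ttr (adjusted p = 0.0925). In males the 7 were Hpd, Cps1, Tat and the secreted Ahsg, Fgg, Serpina1a and Serpinc1. Scaled to the mean of these markers, an alternative chosen after seeing the data, 0 apolipoproteins were called over both sexes, with a median of 0.14. The differences were then -0.71 for Apoa4 (adjusted p = 0.172), -0.17 for Apob, -0.16 for Apoa1 and -0.04 for Apom. The median difference of the 1586 brightest genes was -0.16 over both sexes and -0.35 in males, with 21.1% and 23.8% of them called lower. Bile duct markers were higher, 8 of 10 called, with a median of 3.11 and summed linear levels of 39.2 to 88.8 in AKP::Keap1 livers and 3.6 to 9.67 in AKP livers, of which Spp1 made up 74.8% to 83.9%. The summed hepatocyte level was 2020 to 2610 in AKP::Keap1 livers and 2528 to 3533 in AKP livers. Macrophage markers were called higher for 4 of 8 measured and Kupffer cell markers for 0 of 5, where 21.8% of all genes were called higher. Stellate cell markers rose for 4 and fell for 1 of 7, and endothelial markers fell for 4 of 5. The part of these cell types in the apolipoprotein values was not tested.

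Of 14 other apolipoproteins and HDL proteins, 3 were lower over both sexes and 0 higher, where 17.2% of all genes were called lower, with a median of -0.21. The 3 were Apoc4, which lies between Apoc2 and Apoc1 (-0.39 ± 0.11, adjusted p = 0.0294), Apof (-0.35 ± 0.10, adjusted p = 0.0334) and Apon (-0.45 ± 0.14, adjusted p = 0.0473). Differences of single genes in this list and those below are given under the main scaling alone. In AKP::Keap1 livers the 75th percentile was 0.31 higher, close in size to the Apoc4 and Apof differences. The HDL antioxidant enzyme Pon1 had -0.55 ± 0.18 and missed the threshold (adjusted p = 0.0503). The acute-phase proteins Saa1 and Saa2 had positive differences that were not called, at 1.73 ± 0.63 (adjusted p = 0.0713) and 1.62 ± 0.53 (adjusted p = 0.0527), and Saa2 was called higher in males (2.54 ± 0.75, adjusted p = 0.0491). The 2 AKP::Keap1 males differed widely, with Saa2 at 5.21 and 7.76, against 3.76 and 4.14 in AKP males. Saa1 had 5.26 and 8.34 in AKP::Keap1 males, against 3.91 and 4.10 in AKP males.

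**Figure D5:**
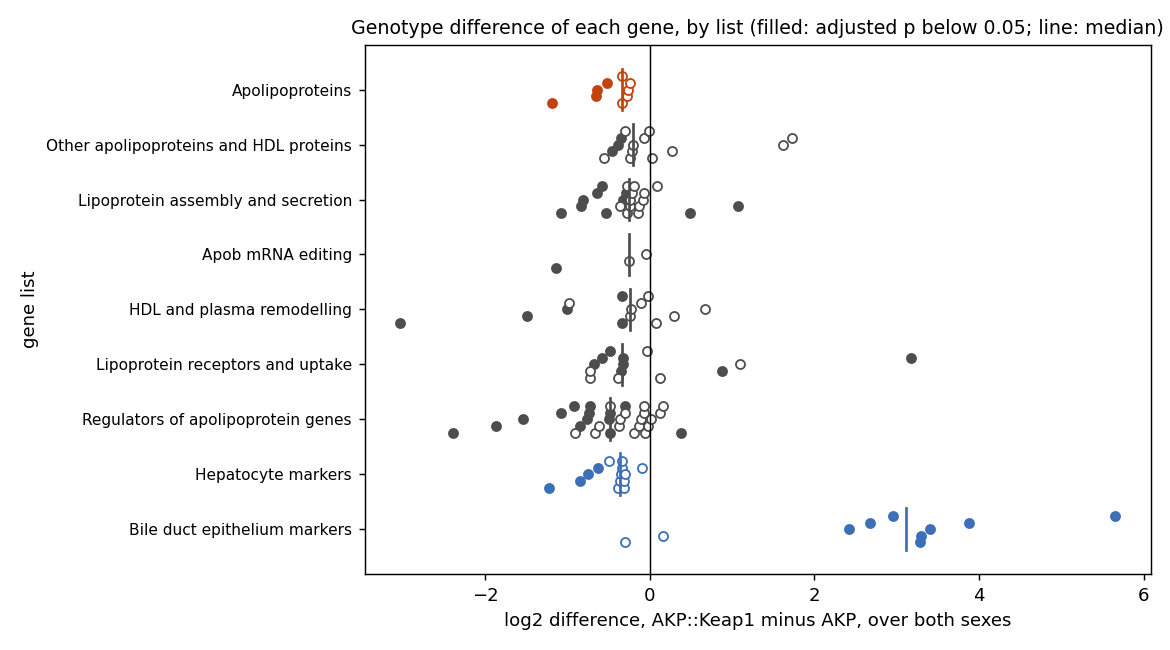
Difference between AKP::Keap1 and AKP livers over both sexes on the log2 scale (horizontal axis) for each gene of the lists named (vertical axis). Points are genes, filled where the adjusted p is below 0.05, and vertical lines are list medians. The apolipoproteins lie between -1.19 and -0.24 and bile duct markers have a median of 3.11.

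Genes that load and export the Apob particle were called in both directions. Of 22, 8 were lower and 2 higher, with a median of -0.25, where 17.2% of all genes were called lower and 21.8% higher. The lower genes included Pdia3, a disulfide isomerase (-0.81 ± 0.10, adjusted p = 0.00242), the lipid esterases Aadac (-0.83 ± 0.11) and Ces3b (-1.08 ± 0.17), and Mttp, the transfer protein that lipidates Apob. Mttp had 2.75 and 2.59 in AKP::Keap1 males, against 3.38 and 3.32 in AKP males, and 2.76 and 2.27 in AKP::Keap1 females, against 2.89 and 3.11 in AKP females (-0.58 ± 0.13, adjusted p = 0.0181). The 2 higher genes were Tm6sf2, needed to load VLDL with lipid (0.49 ± 0.09, adjusted p = 0.00881), and the sorting receptor Sort1 (1.07 ± 0.30, adjusted p = 0.0317). The Sort1 difference was 1.84 ± 0.42 in males (adjusted p = 0.0252) and 0.31 ± 0.42 in females (adjusted p = 0.633). Of 3 genes that edit the Apob message, A1cf, the RNA-binding partner of the deaminase, was lower (-1.14 ± 0.20, adjusted p = 0.00777), while the deaminase Apobec1 had -0.05 ± 0.23 (adjusted p = 0.884).

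In plasma remodelling, 5 of 13 genes were lower and 0 higher, with a median of -0.23, where 17.2% of all genes were called lower and 21.8% higher. Hepatic lipase Lipc fell by 1.49 ± 0.21 (adjusted p = 0.00398), the lipase inhibitor Angptl8 fell by 1.0 ± 0.17 and Lcat fell by 0.33 ± 0.08 (adjusted p = 0.0211). The Lcat difference is close in size to the 0.31 by which the 75th percentile was higher in AKP::Keap1 livers. Endothelial lipase Lipg was not well above background on any AKP::Keap1 array and was at least 3-fold lower there, where the bound sets dim values at the lowest signal among single-spot probes well above background. Lipg, counted among the 5, passed the filter on dim probes through the AKP arrays alone. Of 14 receptors and uptake genes, 6 were lower and 2 higher, with a median of -0.33, against the same shares of all genes. The higher ones were Lrp8, a receptor of Apoe, not well above background on any AKP array and at least 2.88-fold higher in AKP::Keap1, which passed the filter through the AKP::Keap1 arrays alone, and the fatty acid transporter Cd36 (0.88 ± 0.10, adjusted p = 0.0023). Lsr and Sdc1, which bind remnant particles, fell by 0.57 ± 0.12 and 0.68 ± 0.14 (adjusted p of 0.0121 and 0.0122).

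Of 31 measured regulators of apolipoprotein genes, 13 were lower, 1 was higher and 17 were not called, with a median of -0.48. Of all genes, 17.2% were called lower and 21.8% higher. The 4 regulators with the smallest adjusted p were the nuclear receptors Rora (-0.91 ± 0.11, adjusted p = 0.00254) and Nr5a2 (-0.74 ± 0.10, adjusted p = 0.0031), the coactivator Ppargc1a (-1.87 ± 0.29, adjusted p = 0.00529) and the forkhead factor Foxa3 (-1.54 ± 0.28, adjusted p = 0.00788). Hnf4a had 6.30 and 6.23 in AKP::Keap1 males, against 6.89 and 6.91 in AKP males. In females it had 6.24 and 6.17 with AKP::Keap1, against 6.31 and 6.74 with AKP. Its difference over both sexes was -0.48 ± 0.12 (adjusted p = 0.0203). The part of these regulators in the apolipoprotein values was not tested. No gene of these 6 lists was called in the interaction.

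Across the 8 arrays, levels of several bright apolipoproteins ran together, with Pearson r of 0.99 between Apoc1 and Apoe and 0.98 between Apoa2 and Apoe. Others were less alike. Apoa4 had r from 0.22 with Apob to 0.71 with Apom, and Apoa5 from 0.48 with Apoa4 to 0.76 with Apom. Apob had 0.64 with Apoc3 and 0.90 with Apoa1. The genes most like each member over the 8 arrays, among 9537 with an SD of at least 0.3, were Madd, Zcchc9 and Ldlrad3 for Apoa1 (r = 0.99, 0.98 and 0.98), Gulo, Lhpp and Dcn for Apoa4 (0.95, 0.94 and 0.94) and Pa2g4, Stim1 and Eif4ebp2 for Apom (0.996, 0.991 and 0.989). For Apob they were Ppp6c, Ube3a and Cmah (0.98, 0.97 and 0.97), and for Apoa5 Atp2b1, Sel1l and Lancl3 (0.92, 0.90 and 0.89). For Apoa2 they were Exosc2, Tmeff2 and Mkks (0.99, 0.99 and 0.98), for Apoe Tmeff2, Exosc2 and Scp2 (0.99, 0.98 and 0.98), for Apoc1 Scp2, Exosc2 and Tcim (0.98 each) and for Apoc3 Atp5e, Ndufb10 and Uqcrh (0.98, 0.97 and 0.96). Apoa2, Apoc1, Apoc3 and Apoe had an SD of 0.209 to 0.26, so they were not among the 9537 and could not be named. The r of 0.988 between Apoc1 and Apoe was above that of any gene named for either. All these correlations share the arrays, the scaling and the 4 groups, and are given as a description.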

How the data were processed

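Scanner files of 8 one-colour arrays were used. They hold linear intensity values per spot, background-subtracted by the scanner software Feature Extraction. Its version is 10.7.3.1, and the annotation build mm9, per the file headers, and version 10.1 per the submitters' processing notes. The deposited series matrix held the same intensity values (355176 of 355176 equal), so the authors' values carry no scaling between arrays.

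Of 44397 spots per array, 1377 controls and outlier-marked spots were left out, and log2 signals were averaged over the spots of a probe, in all 39429 probes. A probe with every spot marked on an array was left out. Probes were named by unversioned accession through RefSeq (GRCm38.p6), 26049 named and 13380 not, and coordinates are given for promoters alone, in that build, because the files' build differs. Each array's 75th percentile was subtracted. Kept were probes of which any spot exceeded background clearly on 2 or more of the 8 arrays, and the brightest probe stood for a gene. Differences were tested with limma 3.58.1 (R 4.3.3), with 1 mean per group over all 8 arrays, and a difference counted as called where its two-sided p, adjusted by Benjamini-Hochberg over 15857 genes, was below 0.05. Errors of differences are standard errors of this fit. The fit was also run on simulated data with 200 changed genes and independent noise. Those data held no slide effect and no shift in scaling, so they do not test the fit under either. The small number of arrays limits the precision.

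The apolipoproteins and all gene lists were chosen with earlier results of these data known. All members are named, from each list up to 4 genes with the smallest adjusted p by genotype, and Keap1. Other genes named (Mttp, Lcat, Hnf4a, Sort1, Pon1, Apobec1, Saa1, Saa2, Vil1, Fabp2 and markers) were chosen after their values were seen. For likeness, 3 genes with the highest r are named. Scaling, background correction, filter, probe choice, variance model, blocks and each array were varied. The outcome was recorded for the apolipoproteins, Keap1 and the counts over all genes, and not for single genes of the lists.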

Additional observations from a re-analysis of the deposited data

How the results depend on the processing

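The genotype calls of apolipoproteins depended on the processing. Over both sexes, where 4 genes were called, the array median gave 9, quantile normalization 2, no scaling 0, no filter on dim probes 2, the replicate block 2, the slide as a random block 0, the 1586 brightest genes 2 and the hepatocyte markers 0. In males, where 5 were called, the same settings gave 9, 2, 0, 2, 2 (the replicate block), 2 (the brightest genes) and 0 (the hepatocyte markers), and the slide block could not be fitted. Leaving out 1 array gave 1 to 5 genes over both sexes and 0 to 5 in males; the group left with 1 mouse is then assumed to vary like the others. In females, leaving out 1 array gave 0 to 1 genes, the 1 being Apoa4 without AKP::Keap1 female 2, and in the comparison of females with males 0 to 2, while no scaling gave 3 by sex, all lower in females. Of 891 single values of apolipoproteins under alternatives, 89 lost and 22 gained a call and 70 changed sign, 68 of them without a call before or after. The other 2 were in males under hepatocyte scaling, Apoa2 at 0.047 and Apoc3 at 0.051. No setting called an apolipoprotein in the interaction. Apom over both sexes lost its call in 3 settings, without scaling, with hepatocyte scaling and with the slide block.

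Over all genes, calls by genotype numbered 6181 (3457 higher, 2724 lower). The split was 2375 higher and 6372 lower with the array median, 5713 and 644 without scaling, 4233 and 1547 with the brightest genes, 8384 and 385 with hepatocyte markers and 2171 and 3966 with normexp on median signals. It was 2953 and 2841 after quantile normalization, 3264 and 2379 with the replicate block and 2139 and 1174 with the slide block. The number called fell to 3313 with the slide block and 4120 without AKP::Keap1 male 2. In males 4464 genes were called, between 1023 and 8233 over the settings, in females 3389 (717 to 4088), in the interaction 271 (0 to 1201) and by sex 3347 (326 to 4043). Between groups, deviations of same-numbered mice from their group means had correlations from -0.15 to 0.12. With 2 mice per group these cannot show whether replicate numbers pair the mice. The planned normexp on mean signals was run on median signals, as the files used here hold no mean signal.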
